A study of Homo sapiens with 9 samples.

Results

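The regions described here carried an H3K4me3 peak in all 9 CUT&RUN libraries of HEL cells, in control cells and in cells that had lost METTL3, METTL14 or WTAP alike. Peaks of the 9 libraries that shared at least 1 bp were merged into 30404 regions. Of these, 511 (1.68%) held a peak in every library, and they made up 3.15% of the 16226 regions called in all 3 control libraries. The regions were selected on whether a peak was called, so that their presence in every library is a description and not a result. A region whose signal fell below the calling threshold in any library could not be among them.

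H3K4me3, trimethylation of lysine 4 of histone H3, marks the nucleosomes around the start of active genes and is laid down by the SETD1 and KMT2 methyltransferase complexes. It is found above all at CpG-rich promoters, where it spreads over the first nucleosomes of the gene body. METTL3 and METTL14 form the enzyme that writes N6-methyladenosine (m6A) into mRNA, and WTAP holds this enzyme at its sites in the nucleus. HEL is a human erythroleukemia line with erythroid and megakaryocytic features. In CUT&RUN, a nuclease is bound to the mark through an antibody, and the DNA fragments it sets free are sequenced.

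All cells were HEL cells grown in the same medium and transduced with a CRISPR-Cas9 lentivirus, as pools and not as single clones. The controls (NTC, 3 libraries) carried a non-targeting guide, and the other groups carried a guide against METTL3, METTL14 or WTAP (2 libraries each, written here as METTL3-KO, METTL14-KO and WTAP-KO). Nothing in the labels says that the libraries of a group came from separate cultures, so that p-values measure only the spread between these libraries. Pools can hold cells that escaped editing, and the peak lists show nothing of the deletion itself.

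The NTC libraries held 21724 to 21941 peaks, the METTL3-KO libraries 9369 and 9205, the METTL14-KO libraries 5286 and 3169, and the WTAP-KO libraries 3160 and 3673. Each peak has a signal that the authors calibrated to yeast spike-in DNA. Read totals were not given with the peaks, so that the depth of each library is unknown. Within a library the signals are whole multiples of 1 step (within 0.1 of a step for all 65683 peaks with a signal under 3000), which was 1.14 to 1.32 in the NTC libraries, 0.461 and 1.07 in METTL3-KO, 0.440 and 0.416 in METTL14-KO, and 0.407 and 0.320 in WTAP-KO. Division by the step takes out this factor of each library. It is given below for the library medians, for limma counts and for some named genes. A result printed without it may change with it. Peaks lay at GATA1, KLF1, TAL1, GYPC, EPOR and EPB42, 6 of 13 erythroid markers, in all 3 NTC libraries, while HBG1, HBG2, ALAS2 and TFRC had none there. Of the other markers, 4 of 6 megakaryocytic, 1 of 4 T cell (CD8A) and 1 of 3 monocyte genes (LYZ), and the B cell gene PAX5, had such a peak. None of the markers named here lay at a region with a peak in all 9 libraries.

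Sequences of 7 of the regions are shown because they stand for the kinds of promoter and of non-promoter DNA described below. The first 5 are the 150 bases before a gene start (hg19), written 5′ to 3′ on the strand of the gene. Capitals mark the letters CCGGAAG, which ETS factors are known to bind, at RPL7L1 (chr6:42847204-42847353, plus strand) and ZKSCAN3 (chr6:28317574-28317723, plus strand). They mark CCAAT or its reverse ATTGG, the CCAAT box bound by NF-Y, at JUN (chr1:59249721-59249870, minus strand), ALG9 (chr11:111742306-111742455, minus strand) and DIXDC1 (chr11:111797718-111797867, plus strand). The last 2 lie in regions without a gene start. In the region of chromosome 2 (chr2:89879085-89879234, plus strand), capitals mark the repeated letters GGAAT, which occurred 17 times in 150 bases. In the region of chromosome 11 (chr11:51590679-51590977, plus strand), capitals mark the 96 of the last 128 bases that were identical to the base 171 positions before.
RPL7L1: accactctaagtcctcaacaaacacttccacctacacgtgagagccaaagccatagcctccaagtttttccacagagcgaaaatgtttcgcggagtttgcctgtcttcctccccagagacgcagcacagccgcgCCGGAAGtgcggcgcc
ZKSCAN3: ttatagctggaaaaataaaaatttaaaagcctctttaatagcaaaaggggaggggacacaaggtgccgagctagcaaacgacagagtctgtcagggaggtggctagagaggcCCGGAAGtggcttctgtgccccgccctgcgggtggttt
JUN: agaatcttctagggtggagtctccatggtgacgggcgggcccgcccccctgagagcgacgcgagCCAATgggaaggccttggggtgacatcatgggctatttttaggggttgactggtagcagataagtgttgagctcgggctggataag
ALG9: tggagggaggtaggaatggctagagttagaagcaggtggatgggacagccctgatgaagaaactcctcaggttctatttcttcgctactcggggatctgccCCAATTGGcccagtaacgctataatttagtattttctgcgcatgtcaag
DIXDC1: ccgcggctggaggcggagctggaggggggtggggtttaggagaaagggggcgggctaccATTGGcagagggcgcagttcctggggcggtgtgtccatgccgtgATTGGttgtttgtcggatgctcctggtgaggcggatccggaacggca
chromosome 2 repeat: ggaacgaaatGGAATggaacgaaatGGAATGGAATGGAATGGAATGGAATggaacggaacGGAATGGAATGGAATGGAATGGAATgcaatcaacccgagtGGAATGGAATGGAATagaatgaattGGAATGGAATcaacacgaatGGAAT
chromosome 11 repeat: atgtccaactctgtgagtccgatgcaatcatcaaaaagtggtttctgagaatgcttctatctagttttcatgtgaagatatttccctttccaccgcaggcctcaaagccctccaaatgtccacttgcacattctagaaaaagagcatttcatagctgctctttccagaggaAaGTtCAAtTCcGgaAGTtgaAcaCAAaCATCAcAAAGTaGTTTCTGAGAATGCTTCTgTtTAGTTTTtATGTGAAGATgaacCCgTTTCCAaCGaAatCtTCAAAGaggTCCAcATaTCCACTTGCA

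Most of the 511 regions were promoters. An annotated start of a protein-coding gene lay within 1 kb of 416 regions (81.4%), against 59.6% of the 15715 other regions called in all 3 NTC libraries. A long non-coding RNA started at 36 regions and another kind of gene at 4. Of the remainder, 41 regions were intergenic, 13 intronic and 1 exonic. Coding genes started on both strands at 71 regions (13.9%), against 6.31% of the other NTC regions. Pairs of genes with a shared promoter region among them were SARS2 and MRPS12, LIAS and RPL9, MRPL49 and FAU, and MRPL47 and NDUFB5. The regions had a median width of 1659 bp against 953 bp, a median GC content of 51.8% against 53.4%, and a median CpG observed-to-expected ratio of 0.641 against 0.555. In windows of 1 kb, which take out the difference in width, the median GC content was 55.2% against 54.4% and the CpG ratio 0.677 against 0.569. They were thus wide and held more CpG than the other NTC regions, while GC content differed little and its direction turned with the window.

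The regions were also those of strong control signal. With the NTC regions cut into 10 equal groups (deciles) by mean NTC signal, 443 of the 511 lay in the highest, of which they made up 27.3%, and 57 in the next decile. Only 2 lay under the median NTC region. By GC content, the share of NTC regions with a peak in all 9 libraries was 5.43% in the fourth decile and 0.801% in the highest. Within the highest decile by signal, the 443 regions and the 1180 others had a median width of 1694 and 1744 bp, a GC content of 51.7% and 51.0%, and a CpG ratio of 0.637 and 0.591. Starts on both strands were found at 13.8% and 8.05% of them. The 1180 others had a peak in a median of 2 of the 6 knockout libraries.

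At the border of the selection, the lowest knockout signal of any of the 511 was 30.1 at BORCS7 in WTAP-KO 1, where the NTC mean was 8837. DCLRE1C, which encodes the nuclease Artemis, followed with 47.0 in METTL14-KO 2. Another 391 regions had a peak in 8 of the 9 libraries, of which 289 missed it in a knockout library and 102 in an NTC library. LEPROTL1, with an NTC mean of 30630.4, was among these and lacked a peak in WTAP-KO 1. The median NTC signal was 15983 for the 511 regions and 12433 for the 391. Peaks of all 9 libraries shared at least 1 base in 493 regions. The median shared length was 255 bp over all 511, with regions without a shared base counted as 0. Neighbouring peaks of different libraries without a shared base gave the other 18.

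The regions were unevenly spread over the chromosomes. Chromosome 21 kept 10.5% of its NTC regions in all 9 libraries, chromosome 6 8.86%, chromosome 20 7.28%, chromosome 19 6.54%, chromosome 11 6.04% and chromosome 15 5.43%. Chromosome 16 kept 0 of 758 NTC regions and chromosome X 0 of 449. Chromosomes 5 and 7 kept 3 each, of 695 and 765, and chromosome 22 kept 2 of 401. Some spread remained within the highest decile by NTC signal. There, 43.4% of the regions of chromosome 11, 39.5% of chromosome 6 and 39.0% of chromosome 20 were kept, against 10.2% of chromosome 12 and 6.90% of chromosome 5. Chromosomes 16 and X held only 11 and 0 regions of that decile, so that it cannot show whether their lack of kept regions goes beyond low control signal. Chromosomes 7 and 22 held 21 and 14, of which 4.76% and 14.3% were kept. On chromosome 6, 56 of the 274 NTC regions between 20 and 40 Mb were kept (20.4%), a stretch that holds the histone and MHC genes, and 0 of the 84 before 20 Mb. The files hold no measure of copy number, and its part in this spread was not tested.

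**Figure D1:**
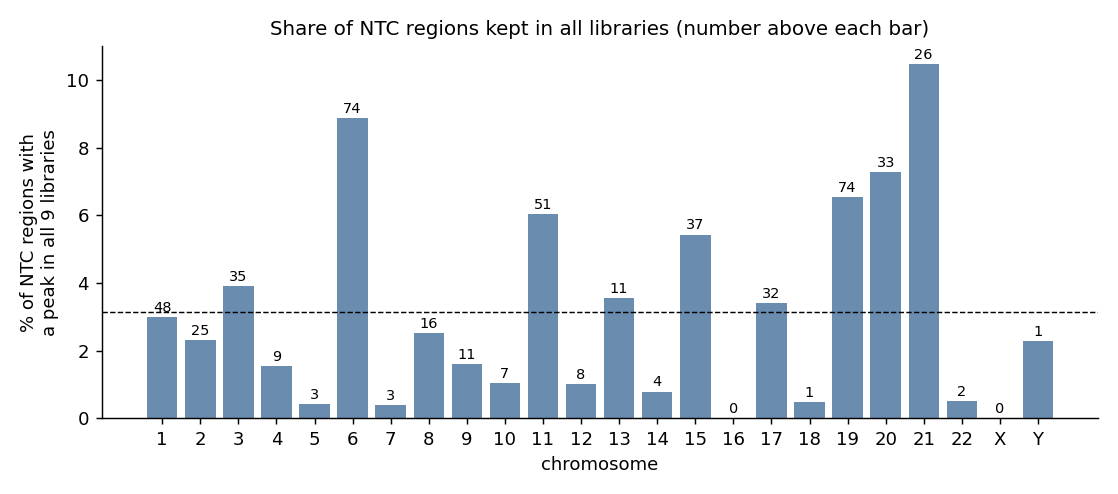
The bars show, for each chromosome, the percentage of regions called in all 3 NTC libraries that had a peak in all 9 libraries, with the number of such regions above each bar and the share over all chromosomes (3.15%) as a dashed line. Chromosomes 21 and 6 stand highest, and chromosomes 16 and X have none.

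The promoters among these regions included genes of the mitochondrial ribosome, of Mediator and of translation. Over all coding genes, 499 of 8481 with a peak at a start in all 3 NTC libraries (5.88%) lay at one of the 511 regions. Of the mitochondrial ribosome, 15 of 58 such genes did (25.9%, at 14 regions), among them MRPL2, MRPL4, MRPL53 and MRPS18A. Of Mediator and TFIID, the complexes that link transcription factors to RNA polymerase II, 6 of 32 did (MED1, MED8, MED17, MED24, MED28 and TAF2). Translation factors gave 4 of 34 (EIF3H, EIF3I, EIF3L and EIF6), proteasome genes 3 of 22, the respiratory chain 6 of 52, cytosolic ribosomal proteins 6 of 59, chaperones 2 of 15, and splicing factors 3 of 42. Replication-dependent histones gave 2 of 13 (H1-3 and H4C8), chromatin remodelling 2 of 21 (SMARCC1 and BRD2), polycomb 1 of 15 (RING1), snoRNA host genes 1 of 8 and stress housekeeping genes 1 of 16.

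Of the erythroid transcription factors, 1 of 15 (FOXO3) lay at such a region, and of the aminoacyl-tRNA synthetases of the cytosol, 1 of 15 (QARS1). Both shares are near that of all coding genes. SARS2, named above, is a mitochondrial synthetase and outside that list. The megakaryocytic and myeloid factors gave 1 of 10 (MAFG, a partner of NFE2), immediate early genes 1 of 15 (JUN) and DNA replication 1 of 25 (FEN1). None of the marked genes did in the lists of red cell membrane (8), iron handling (7), globins (1), EPO and JAK-STAT signalling (13), platelet surface (8), cell cycle regulators (21), the MYC network (8), the BCL2 family (10), the nucleolus (14), the m6A writer complex (3), m6A erasers and readers (6), H3K4 methyltransferases (16) and H3K4 demethylases (7). The lists are small, and these shares were not tested.

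Zinc-finger genes were looked at after the values had been seen, because they stood out in the list of names. Genes with ZNF, ZSCAN, ZKSCAN or ZFP symbols, many of which encode DNA-binding repressors, gave 53 of 362 (14.6%) at 51 regions. On chromosome 19, where these genes lie in clusters, 39 of 176 (22.2%) lay at 38 of the 74 regions of that chromosome. Another 8 regions were on chromosome 6, with ZKSCAN3, ZKSCAN4 and ZSCAN12 among them. ZKSCAN3, shown above, had a signal of 20134, 16041 and 22651 in the NTC libraries, 6576 and 5214 in METTL3-KO, 3127 and 2723 in METTL14-KO, and 2193 and 2334 in WTAP-KO. Every knockout library lay under every NTC library there.

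Short motifs were counted, on both strands, in windows from 250 bases before to 50 after the canonical start of the coding genes. Letters of the ETS site, CCGGAAG, lay in 32.2% of the 444 windows at these regions, in 21.7% of the 865 at other regions of the highest decile by NTC signal, in 20.6% of the 7194 at the remaining NTC regions and in 14.1% of all 19881. For the YY1 letters AAGATGGC the shares were 11.7%, 5.66%, 5.62% and 4.05%, and for CCAAT 41.9%, 34.8%, 36.0% and 36.0%. The NRF1 letters GCGCATGCG were in 5.86%, 3.01%, 3.99% and 2.71%. The SP1 letters CCGCCC went the other way, with 65.8%, 75.4%, 77.9% and 61.4%. Shares of TATAAA (4.73%, 4.62%, 4.36% and 9.62%), the GATA letters AGATAA (5.41%, 3.58%, 4.28% and 7.15%) and the E-box CACGTG (9.46%, 9.36%, 10.7% and 8.76%) lay closer together across the NTC groups. The CRE letters TGACGTC were in 6.76%, 5.09%, 5.92% and 4.58%, and the ZBTB33 letters TCTCGCGA in 3.15%, 2.43%, 2.31% and 1.74%. The 444 windows had a median GC content of 61.7%, against 65.7% in the 865. A match is only a run of letters and no evidence of binding.

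Although each region kept a peak, its signal fell in the knockouts. The median over the 511 regions was 15307, 15065 and 17768 in the NTC libraries, 4872 and 3069 in METTL3-KO, 2212 and 1278 in METTL14-KO, and 933 and 1343 in WTAP-KO. The 6 knockout libraries all lay under the 3 NTC libraries. The mean of the medians was 2285 ± 1486 (SD, n = 6) in the knockouts and 16047 ± 1496 (SD, n = 3) in NTC, a level of 14.2% (exact two-sided permutation test over libraries, p = 0.0238, the smallest that 6 against 3 allow). METTL3-KO stood at 24.7% of NTC, METTL14-KO at 10.9% and WTAP-KO at 7.09% (exact permutation p = 0.2 each, the smallest that 2 against 3 allow). METTL3-KO stood at 275% of the 4 other knockout libraries (exact permutation p = 0.133, the smallest possible). With the signals divided by the step of each library, the levels became 36.2% (p = 0.0238 in the exact permutation test), 52.1%, 31.4% and 25.1% of NTC, and METTL3-KO stood at 184% of the other knockouts (exact permutation p = 0.533). In steps, the medians were 11630.0, 11546 and 15561 in NTC, 10578 and 2874 in METTL3-KO, 5027 and 3072 in METTL14-KO, and 2292 and 4194 in WTAP-KO. Every knockout library still lay under every NTC library, METTL3-KO 1 by little. METTL3-KO 2 lay below 3 of the 4 other knockout libraries, and without METTL3-KO replicate 1 the 184% became 78.8%.

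**Figure D2:**
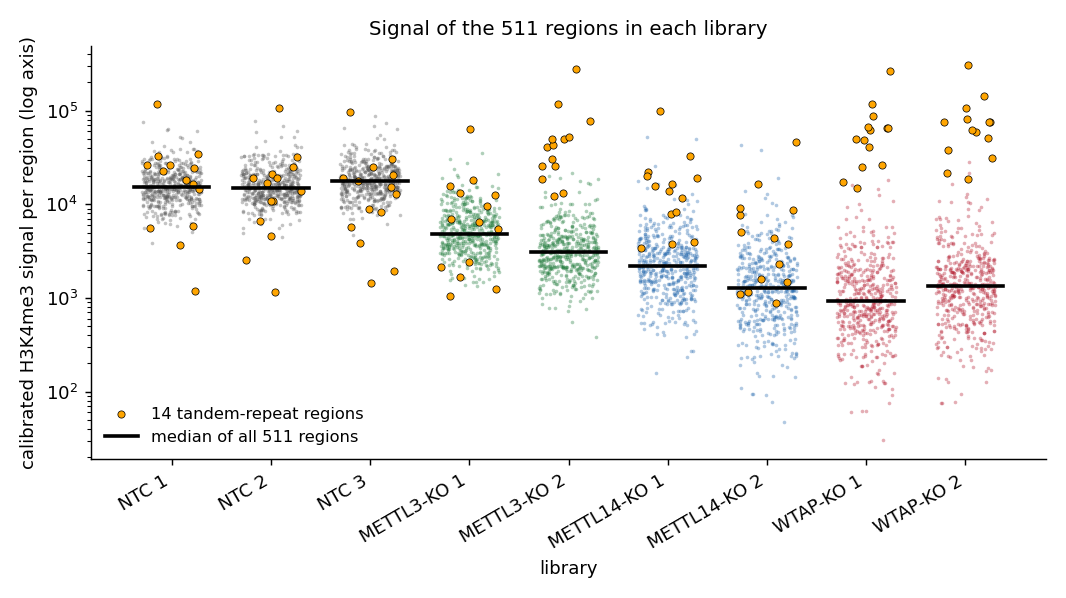
Each point is 1 of the 511 regions, with its calibrated signal on a log axis in each of the 9 libraries, the median as a black bar and the 14 tandem-repeat regions in orange. The medians run from 15065 to 17768 in NTC and from 933 to 4872 in the knockouts, while the orange points lie above the other regions in METTL3-KO 2 and in both WTAP-KO libraries.

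The peaks also became narrower. The median summed peak width of a region was 1540, 1548 and 1564 bp in NTC, 823 and 781 bp in METTL3-KO, 522 and 402 bp in METTL14-KO, and 361 and 426 bp in WTAP-KO. The mean was 553 ± 201 bp (SD, n = 6) in the knockouts against 1551 ± 12.2 bp (SD, n = 3), or 35.6% (exact permutation p = 0.0238). METTL3-KO kept 51.7% of the NTC width, METTL14-KO 29.8% and WTAP-KO 25.4% (exact permutation p = 0.2 each). METTL3-KO peaks were 187% as wide as those of the other knockouts (exact permutation p = 0.133). Each of the 3 knockout groups lay apart from NTC without overlap.

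The midpoints of the peaks shifted upstream, so that their median lay closer to the gene start. In 232 regions with the start of 1 coding gene and 1 peak in each library, the median peak midpoint was 107, 120 and 113 bp downstream of the start in NTC. It was 64.8 and 63.5 bp downstream in METTL3-KO, 23 bp upstream and 23.8 bp downstream in METTL14-KO, and 47.5 and 35.3 bp downstream in WTAP-KO. The mean midpoint moved from 113 ± 6.50 bp (SD, n = 3) to 35.3 ± 32.7 bp (SD, n = 6), a difference of -77.7 bp (exact permutation p = 0.0238). The lower quartile also moved upstream, from -91.6 to -78.8 bp in NTC to -155 to -112 bp in the knockouts. Midpoints within 250 bp of the start made up 53.45% to 56.0% in NTC and 61.2% to 65.1% in the knockouts. Neither measure was tested. The peak covered the start itself in 81.0%, 83.6% and 83.2% of these regions in NTC, in 75.9% and 72.0% in METTL3-KO, in 67.7% and 58.6% in METTL14-KO, and in 50% and 52.2% in WTAP-KO. This last measure was added after the data were seen.

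**Figure D3:**
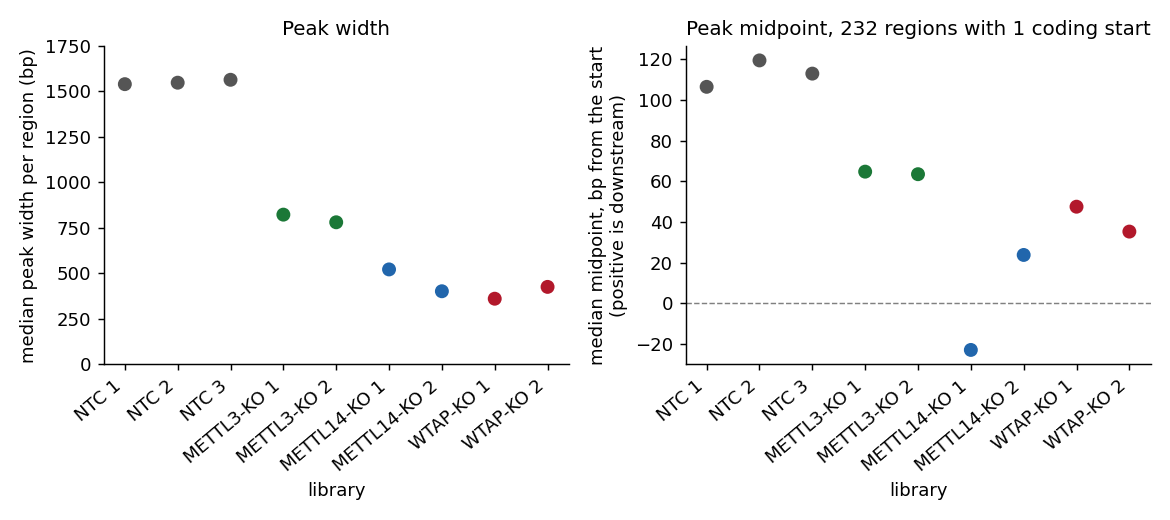
The left panel plots the median summed peak width (bp) of the 511 regions in each library, and the right panel the median distance (bp) of the peak midpoint from the start in 232 regions with 1 coding start, with positive values downstream. NTC libraries sit at 1540 to 1564 bp and 107 to 120 bp downstream, and all knockout libraries lie below them in both panels.

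These regions held 524 to 550 peaks in each library, since the selection asks for a peak in every one. Their share of the peaks thus had to rise as the number of peaks fell, and this rise is no result. They held 2.39% to 2.42% of the peaks and 10.3% to 10.5% of the peak signal in NTC, and 16.9% of the peaks and 20.8% of the signal in WTAP-KO 1. Of the signal, much of this came from 14 tandem-repeat regions described below. The other 497 regions held 10.0% to 10.1% of the signal in NTC, 11.4% and 11.1% in METTL3-KO, 12.8% and 14.5% in METTL14-KO, and 9.07% and 9.11% in WTAP-KO. The median peak at these regions stood at the 96.5th to 96.7th percentile of all peaks in NTC, at 83.5 and 83.0 in METTL3-KO, at 71.9 and 59.3 in METTL14-KO, and at 49.2 and 55.5 in WTAP-KO. In the WTAP-KO libraries, a typical peak at these regions was thus about as strong as the median peak of the library. Across the 511 regions, signals of NTC libraries ranked alike (Spearman 0.931 to 0.946), those of a knockout group less so (0.792 to 0.819), and NTC against knockout libraries gave 0.531 to 0.799. These are descriptions over regions that share a library.

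Region by region, a limma fit on log2(signal + 30.1) over the 24547 regions with peaks in 2 or more libraries gave a median change of -3.0 in the knockouts against NTC. All 511 passed that filter, since each has 9 peaks. By adjusted p, 495 of the 511 were lower in the knockouts, against 76.7% of all tested regions, and 0 were higher, against 12.2%. The tested regions include those without an NTC peak, 757 of which had a peak in all 6 knockout libraries. The 511 could not be among these, so that the selection sets part of this difference. At an unadjusted p under 0.05, 1 of the 511 was higher. In METTL3-KO 473 were lower (62.4% of all tested), in METTL14-KO 494 (65.3%) and in WTAP-KO 497 (65.5%). Median changes in the same order were -2.01, -3.15 and -3.72. Without METTL3-KO replicate 2 the METTL3-KO count was 263. Mean knockout signal was under 10% of NTC in 76 regions, 10% to 25% in 391, 25% to 50% in 27, 50% to 100% in 3 and above 100% in 14. On the undivided signals, every knockout library lay under every NTC library in 494 regions. The median change of all tested regions was -4.95, which counts many regions with no peak in any knockout library, as these 511 could not be. Divided by the step, the count fell to 330 lower and 13 higher for all knockouts, and to 25 lower in METTL3-KO, 171 in METTL14-KO and 254 in WTAP-KO. The median change was then -1.64.

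**Figure D4:**
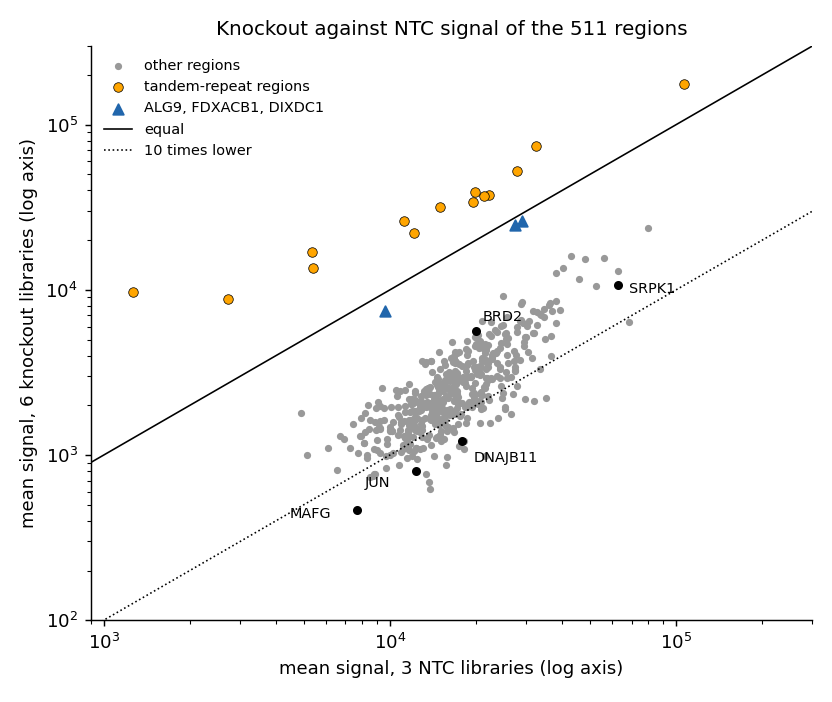
Each point is 1 of the 511 regions, with the mean signal of the 3 NTC libraries and of the 6 knockout libraries on log axes, the line of equal signal (solid) and of a level 10 times lower (dotted). Most regions lie between these lines or just under the dotted one, the 14 tandem-repeat regions lie above equality, and ALG9, FDXACB1 and DIXDC1 lie just under it.

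SRPK1, a kinase of SR splicing proteins, had the highest NTC signal of the promoters (chr6:35886350-35888335). It read 60513, 58913 and 68113 in NTC, 19759 and 10082 in METTL3-KO, 11153 and 7767 in METTL14-KO, and 5734 and 9414 in WTAP-KO. Knockout levels were lower in all 6 libraries, by -2.65 ± 0.29 (log2, SE; limma adjusted p = 1.34e-04). The change was -1.26 after division by the step and no longer passed (adjusted p = 0.0524).

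JUN, an AP-1 subunit, had 9209, 12006 and 15936 in NTC, 1706 and 1246 in METTL3-KO, 855 and 293 in METTL14-KO, and 254 and 434 in WTAP-KO (log2 change -4.19 ± 0.42, limma adjusted p = 8.59e-05). FOXO3, a factor of erythroid maturation, changed by -4.08 ± 0.36 and MAFG by -4.59 ± 0.50 (log2, SE). MAFG kept only 61.5 and 77.2 in WTAP-KO, against 6128 to 8519 in NTC. Each of the 3 lay below the median change of -3.0, and after centring JUN and MAFG passed while FOXO3 did not (limma adjusted p = 0.00822, 0.00586 and 0.0592). The regulators RING1 (-3.06) and SMARCC1 (-3.15) lay near the median. The steepest falls of all were at an intergenic region (chr1:89534562, -4.91), DNAJB11, an endoplasmic reticulum co-chaperone (-4.83), an intron of LRRK1 (-4.72), CARMAL, a long non-coding RNA (-4.67), and ATP6V0A1, a subunit of the vacuolar proton pump (-4.66). Each was lower in limma (adjusted p at most 6.15e-04).

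Several genes of translation and transcription kept more. RPL30, a protein of the large ribosomal subunit, changed by -1.91 ± 0.17, the translation factor EIF6 by -2.22 ± 0.27, BRD2, a reader of acetylated histones, by -2.07 ± 0.25, MED28 by -1.98 ± 0.23 and the histone gene H4C8 by -1.98 ± 0.32 (log2, SE), all past the threshold in limma. MRPL4 changed by -1.83 ± 0.23. BRD2 had 21287, 17603 and 21004 in NTC, 12196 and 7179 in METTL3-KO, 1885 and 2841 in METTL14-KO, and 4765 and 4852 in WTAP-KO, so that METTL14-KO was the lowest group. Over lists, the median change was -2.29 for 6 regions of cytosolic ribosomal proteins, -2.55 for 14 of the mitochondrial ribosome, -2.48 for 6 of Mediator and TFIID, -2.70 for 4 of translation factors and -3.43 for 3 of the proteasome, against -3.03 for all 416 coding regions. The lists include MRPL53 at -4.05. After division by the step, RPL30 (-0.53, limma adjusted p = 0.23), BRD2 (-0.69, 0.207) and EIF6 (-0.83, 0.117) kept their direction and no longer passed. MED28, H4C8 and MRPL4 are given here without this division.

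After each library was centred on its median over the 511 regions, 52 regions were lower than this shared fall (56.3% of all tested regions) and 107 less reduced or higher (15.4%) by limma. The background here is set mostly by regions with no knockout peak. Centred on 1000 regions called in all 4 groups, the split was 8 lower and 152 higher. The lower count was 81 without METTL14-KO replicate 1 and 22, 19 and 22 without NTC replicate 1, 2 and 3. Of the 107, 55 were among the 128 regions of highest NTC signal, and 14 were the tandem-repeat regions. With the regions cut into 4 equal groups, median changes hardly differed by GC content (-2.95, -2.99, -3.05 and -3.05) or by width (-2.99, -3.03, -2.96 and -3.09). By NTC signal they were -3.07, -3.18, -2.96 and -2.68, the last being the group of highest signal.

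On the undivided signals, METTL3-KO mostly stood highest of the 3 knockouts, while the order of the other groups varied. METTL3-KO was the highest of the knockout groups in 489 of the 511 regions, with both its libraries above the 4 others in 367. WTAP-KO was lowest in 393 and METTL14-KO in 118. These counts rest on the same few libraries in every region and were not repeated after division by the step. By limma, 196 regions were higher in METTL3-KO than in the other knockouts, against 14.7% of all tested regions. Over the 511, the median difference was 1.47 (log2). All tested regions include many with peaks in fewer than 2 knockout libraries. With NTC left out of the fit, 145 of the 511 were higher, against 4079 of the 8040 regions then tested. The count of 196 became 34 without METTL3-KO replicate 1 and 108 without WTAP-KO replicate 1. With division by the step it was 0 (29 at an unadjusted p under 0.05). After centring, METTL3-KO was relatively highest at SLC18B1, a vesicular polyamine transporter, by 2.05 ± 0.57 (log2, SE; limma adjusted p = 0.0229). SLC18B1 had 10508, 8831 and 10653 in NTC, 4522 and 2441 in METTL3-KO, 509 and 94.9 in METTL14-KO, and 125 and 662 in WTAP-KO. An intergenic region (chr6:27202206-27203281) followed with 1.86 ± 0.41, and then PRKCQ, a protein kinase C, with 1.77 ± 0.43 (limma adjusted p = 0.0222 each). Both METTL3-KO libraries lay above the other 4 at SLC18B1 and PRKCQ. Neither gene passed without METTL3-KO replicate 1 (adjusted p = 0.155 each) or with NTC left out of the fit (0.111 and 0.0953), and SLC18B1 did not pass without METTL3-KO replicate 2 (0.0528), without WTAP-KO replicate 1 (0.0673) or after division by the step (0.0811).

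Between METTL14-KO and WTAP-KO, 9 regions were higher in METTL14-KO (1.18% of all tested regions by limma) and 1 was lower (0.558%). The 1 lower was STK11, which encodes the kinase LKB1, with 158 and 78.2 in METTL14-KO, 948 and 1717 in WTAP-KO and 13524 to 16523 in NTC (log2 difference -3.19 ± 0.48, limma adjusted p = 0.0317). MRPL53 was the opposite case, with 2526 and 1633 in METTL14-KO and 129 and 171 in WTAP-KO (3.52 ± 0.36, limma adjusted p = 0.00538). The others were BORCS7, AARSD1, TMUB2, ZNF772, HSPA1B, and ALG9, FDXACB1 and DIXDC1. Over the alternative settings, STK11 still passed in 9 and no longer passed in 9. MRPL53 still passed in 16 and no longer passed in 2. MRPL53 did not pass after division by the step, where the counts were 1 higher (DIXDC1) and 2 lower. They also moved with single libraries, from 4 to 27 higher and from 0 to 3 lower when each library was left out in turn. Without METTL14-KO replicate 2 they were 27 higher, and without METTL14-KO replicate 1, WTAP-KO replicate 1 or any 1 of the NTC libraries they were 4. With only these 2 groups fitted, 4 of the 511 were higher and 2 lower, against 250 and 329 of the 3809 regions then tested.

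ALG9, FDXACB1 and DIXDC1 lie next to each other on chromosome 11, between 111741301 and 111798445, and had a pattern of their own. They were chosen after their values were seen. ALG9, a mannosyltransferase of N-glycan assembly, had 26031, 27387 and 33282 in NTC, 30637 and 17585 in METTL3-KO, 49976 and 43264 in METTL14-KO, and 7338 and 8854 in WTAP-KO. Both METTL14-KO libraries lay above every NTC library and both WTAP-KO libraries below. FDXACB1, which shares its region with CFAP68, had 25142, 26193 and 31086 in NTC, 27685 and 19313 in METTL3-KO, 53004 and 38188 in METTL14-KO, and 3514 and 6833 in WTAP-KO. DIXDC1, a DIX-domain protein of Wnt signalling, had 8512, 9212 and 11178 in NTC, 8702 and 5019 in METTL3-KO, 17901 and 11772 in METTL14-KO, and 454 and 599 in WTAP-KO. The order of the libraries was nearly the same at all 3.

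In METTL14-KO these 3 stood at 161%, 166% and 154% of their NTC mean, and in WTAP-KO at 28%, 18.8% and 5.47%. The difference between METTL14-KO and WTAP-KO was 2.52 ± 0.30, 3.19 ± 0.38 and 4.72 ± 0.40 (log2, SE; limma adjusted p = 0.0115, 0.011 and 0.00254). That between METTL14-KO and NTC did not pass (0.69, 0.72 and 0.60, with limma adjusted p of 0.0624, 0.101 and 0.171). Divided by the step, METTL14-KO was above NTC by 2.24, 2.27 and 2.15 (limma adjusted p = 0.0112, 0.0127 and 0.0253), and the difference from WTAP-KO passed only at DIXDC1 (adjusted p = 0.333, 0.139 and 0.0417). Peak width was kept as well, at 1752 and 1577 bp for ALG9 in METTL14-KO against 1765 to 1779 bp in NTC. Neighbours did not share the pattern. NKAPD1, the next region on this side, had 14350 to 15842 in NTC and 4322 and 2415 in METTL14-KO, and PTS, a further one of the 511, had 11458 to 14823 and 2527 and 1106. Copy number in the METTL14-KO pool is not measured here, and its part was not tested.

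The 14 regions whose mean knockout signal exceeded the NTC mean were all tandem repeats. They were grouped, with a threshold set after the values were seen, by matching each region with itself at offsets of 20 to 400 bases. The best offset matched 51.6% to 95.0% of the bases in these 14, against a median of 29.8% and at most 49.7% in the other 497. In 13 of them it lay at or within 4 bases of 171 or 342, which is the known repeat length of the alpha satellite of human centromeres, and of its double. These 13 lie on chromosomes 2, 7, 9, 11 and 18. The remaining region (chr2:89878342-89879978) held the letters ATTCC or their reverse GGAAT 114 times per kb, against a median of 1.80 in the others, as satellite DNA of pericentromeres does. An assembly gap of at least 1 Mb lay within 2 Mb of 13 of the 14. How reads that match many copies were placed is not given in the sources used here, so that each such region may stand for many copies.

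At these repeats the 2 libraries of METTL3-KO lay apart on the undivided signals, and so did those of METTL14-KO. Both WTAP-KO libraries lay above NTC. Relative to the NTC mean, the median over the 14 was 119%, 94.1% and 87.5% in NTC, 56.9% and 277% in METTL3-KO, 97.8% and 30.9% in METTL14-KO, and 331% and 416% in WTAP-KO. The other 497 regions had 31.8% and 19.2%, 14.6% and 8.36%, and 6.18% and 8.53% in the same knockout libraries. METTL3-KO 2 and both WTAP-KO libraries lay above every NTC library in 14 of 14 regions. METTL3-KO 1 and METTL14-KO 2 lay under every NTC library in 12 of 14. By their medians, the 2 METTL3-KO libraries thus lay on opposite sides of NTC on the undivided signals. This pattern changes with the step, which was 0.461 and 1.07 in these libraries. After division by it, METTL3-KO 1 and METTL14-KO 2 lay above every NTC library at the strongest of the repeats.

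The strongest of the repeats (chr9:66970956-66972395) was also the strongest of the 511 regions in NTC. It had 117578, 106459 and 96317 in NTC, 63082 and 279631 in METTL3-KO, 100067 and 46657 in METTL14-KO, and 263823 and 309540.0 in WTAP-KO. A region of chromosome 7 (chr7:61079057-61080662) rose most, from 1199, 1159 and 1448 in NTC to 1249 and 13366 in METTL3-KO, 3443 and 884 in METTL14-KO, and 17429 and 21572 in WTAP-KO. Its change in WTAP-KO was 3.91 ± 1.05 (log2, SE; limma adjusted p = 0.0132). In all, 4 of the 511 regions were higher in WTAP-KO by limma, against 5.50% of all tested regions, and each was a repeat. Without WTAP-KO replicate 1 this count was 1 and without replicate 2 it was 0, and without NTC replicate 2 or 3 it was 1. Divided by the step it was 14. The repeats held 2.65% to 3.95% of the signal of the 511 regions in NTC, 5.12% and 31.2% in METTL3-KO, 15.7% and 10.3% in METTL14-KO, and 56.5% and 54.3% in WTAP-KO. Not every repeat kept its peak: of 155 NTC regions without a gene start that passed the same match, 141 were not among the 511. Without the 14, the median signal stood at 14% of NTC in the knockouts, and the 28 other intergenic regions had a median change of -3.14, near that of the promoters.

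**Figure D5:**
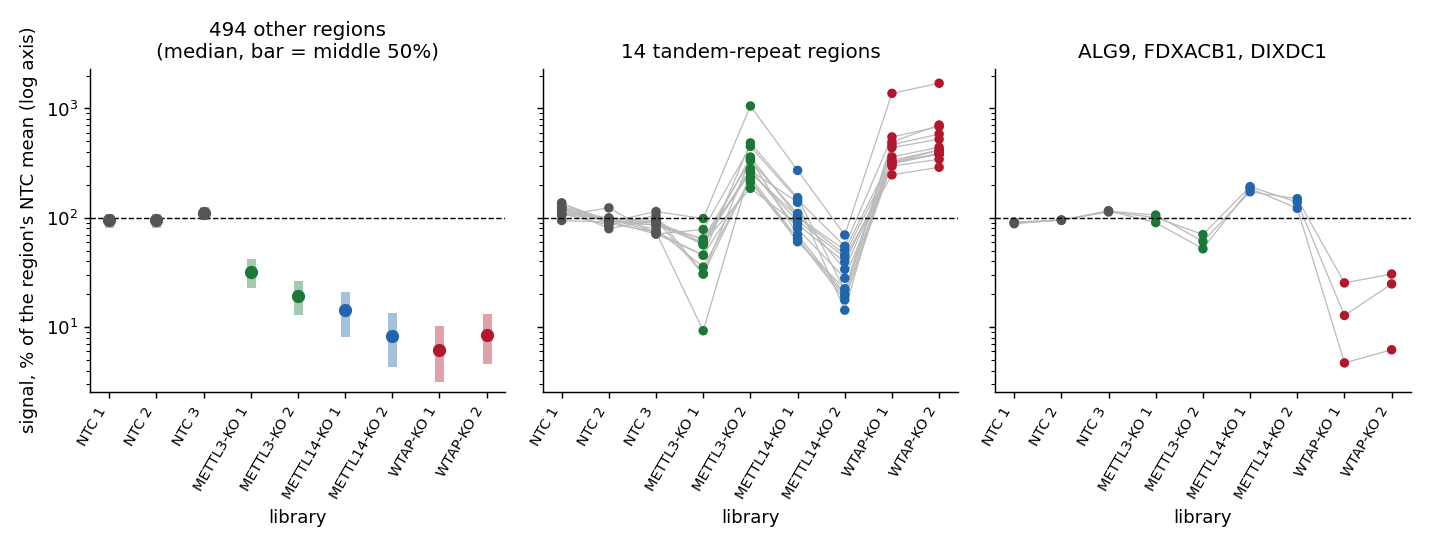
Each panel gives, for the 9 libraries, the signal as a percentage of the region's NTC mean on a log axis, for 494 other regions (median with the middle 50% as a bar), the 14 tandem-repeat regions (1 line each) and ALG9, FDXACB1 and DIXDC1. Signals are not divided by the step. The first panel falls in every knockout. The repeats are high in METTL3-KO 2 and WTAP-KO and low in METTL3-KO 1 and METTL14-KO 2. The 3 genes are high in METTL14-KO and low in WTAP-KO.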

How the data were processed

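CUT&RUN for H3K4me3 was performed on HEL cells with a protein A-MNase fusion, and paired-end reads were aligned with Bowtie to hg19 and, for the spike-in, to sacCer3. Picard removed duplicates, and the authors called peaks in each library separately. Tool versions are not given in the sources used here. Each deposited list gives peak coordinates and a calibrated signal, which is no read count, so that no count test was run. Depth is unknown, and with 2 or 3 libraries a group the number of libraries limits the precision.

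Peaks sharing at least 1 bp were merged across libraries, and the signal of a region was the sum over its peaks. Genes were taken from GENCODE v44lift37, with starts counted within 1 kb. The log2(signal + 30.1) values, with the smallest region signal as pseudocount, were fitted with limma 3.58.1 (R 4.3.3, variance trend, 4 groups in 1 model) over the 24547 regions with peaks in 2 or more libraries, with Benjamini-Hochberg adjustment over all of them at a threshold of 0.05. The fit was tested on simulated data. Library medians were compared with exact two-sided permutation tests (Python 3.11.15).

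The text names the 5 regions of highest NTC and of highest knockout signal, the 5 with the largest and smallest falls, the 5 at either end of METTL3-KO against the other knockouts after centring, and up to 5 per gene list, with a choice from these. Genes outside this rule are said to be chosen after their values were seen, or are given as examples at a count, a border, a motif or a sequence. Results for some genes that this rule covers are not reported here. The regions and lists were chosen with earlier results of these data known. No replicate pair shared a region of identical signal. Alternatives covered merging, peak thresholds, pseudocounts, filters, the variance trend, the step, the replicate block and leaving out each library.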

Additional observations from a re-analysis of the deposited data

Results flagged for a closer look

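The knockout groups differed from each other at part of the regions. By limma, 196 of the 511 regions (38.4%) had a higher signal in METTL3-KO than in METTL14-KO and WTAP-KO, against 14.7% of all tested regions. Divided by the step, this count was 0. All tested regions include many with peaks in fewer than 2 knockout libraries, as the 511 could not be. With NTC left out of the fit, 145 of the 511 were higher, against 4079 of the 8040 regions then tested. Between METTL14-KO and WTAP-KO 10 differed. Of these, 9 were higher in METTL14-KO (1.76%, against 1.18% of all tested) and 1 was lower (0.196%, against 0.558%). Both shares are small and near those over all 24547 tested regions, of which 3809 had peaks in 2 or more libraries of these groups. With only these 2 groups fitted, 4 of the 511 were higher and 2 lower, against 250 and 329 of those 3809. The 196 and the 10 came up because the contrast tests the difference between knockout groups itself. The 10 are STK11, MRPL53, BORCS7, AARSD1, TMUB2, ZNF772, HSPA1B, ALG9, FDXACB1 and DIXDC1. No group has the 4 to 10 libraries that a search for a library far from its group needs.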

How the results depend on the processing

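The region count was 595 when peaks up to 1 kb apart were merged, 493 when 1 base had to be shared by all 9 libraries, 206 when only peaks at or above the median of their library counted, and 511 to 616 when any 1 library was left out. The share at coding starts (80.1% to 83.0%) and the CpG ratio stayed near their values, and GC content was 56.3% over bases covered by all 9. The share of soft-masked bases was not run, because the reference used here has none marked. The median signal in the knockouts stood at 11% to 15.9% of NTC with each library left out, the median width at 32.1% to 38.1% and the midpoint at -83.6 to -66.0 bp. Without 1 NTC library, the exact permutation test cannot go below p = 0.0714, so that none of these passed. Leaving out the 14 repeat regions, an alternative chosen after seeing the data, kept the signal and width ratios within 1.5 times.

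Dividing by the step, which for the limma counts was chosen after seeing the data, moved most counts that were not centred. They became 13 higher in all knockouts, 25 lower in METTL3-KO, 171 lower in METTL14-KO, 254 lower and 14 higher in WTAP-KO, 0 higher in METTL3-KO than in the other knockouts, and 1 higher and 2 lower in METTL14-KO than in WTAP-KO. What the step reflects was not tested. With this division and a library left out as well, a pair of choices also added after seeing the data, the median signal in the knockouts stood at 27% to 40.3% of NTC. METTL3-KO against the other knockouts turned to 78.8% without METTL3-KO replicate 1, and was 164% to 290% without any other library. No other median reversed. The replicate numbers of the labels did not pair libraries (over 12 same-numbered pairs, deviations correlated from -0.069 to 0.054). With a replicate block, counts were 0 higher in WTAP-KO, 69 higher in METTL3-KO than in the other knockouts, and 1 higher and 0 lower in METTL14-KO than in WTAP-KO, and after centring 15 regions were lower. The block also left SLC18B1 and PRKCQ at a limma adjusted p = 0.0542 each in METTL3-KO against the other knockouts after centring. The block left 493 regions lower in all knockouts, the median signal at 12.8% of NTC, the width at 33.9% and the midpoint at -77.7 bp.

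Counts in the small groups moved with other settings, and the cause was not tested. Regions higher in all knockouts numbered 1 with a 10 times larger pseudocount, 2 with these regions alone, 1 with the highest peak, and 0 to 2 with a library left out. Those higher in WTAP-KO numbered 2 with all regions tested, 13 with these regions alone, 13 with only the groups compared, and 0 to 5 with a library left out. METTL3-KO exceeded the other knockouts at 117 with all regions and 443 with these alone, and at 34 to 289 with a library left out. METTL14-KO exceeded WTAP-KO at 3 with the larger pseudocount, 5 with all regions, 53 with these alone, 4 with only the groups compared, 14 without the variance trend, and 4 to 27 with a library left out. It was lower at 0, 18 with these alone, 2 with only those groups, and 0 to 3. The count of regions lower in METTL3-KO than in NTC ran from 263 (without METTL3-KO replicate 2) to 483 with a library left out. After centring, 8 were lower and 152 higher when libraries were centred on 1000 regions called in all 4 groups, and 19 to 81 were lower with a library left out, with 81 without METTL14-KO replicate 1 and 19 to 22 without 1 NTC library.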
